A study of Homo sapiens with 4 samples.

Results

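The NRF2 antioxidant and ferroptosis defense genes were 10 genes: NFE2L2, KEAP1, NQO1, HMOX1, GCLC, GCLM, SLC7A11, TXNRD1, SRXN1 and GPX4. They were named for what their products do. The rule uses no measured value, but the genes were picked with earlier results of these data known. Of these 10, 9 had a value in all 4 libraries, among 27629 gene identifiers with a value in at least 1 library. SRXN1 (ENSG00000271303), which encodes the sulfiredoxin that repairs oxidised peroxiredoxins, had no row under its identifier and was not analysed here.

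RNA-seq was performed on total RNA from cultures of the human bladder cancer line UM-UC-3, with 1 library per group. The 4 groups were cells given a control siRNA, a pair of siRNAs against the RNA-binding protein hnRNPK (si-hnRNPK), a pair against the splicing repressor PTBP1 (si-PTBP1) or a pair labelled as directed against the long noncoding RNA lncRNA-LBCS (si-lncRNA-LBCS, a name used here for the label). All groups shared the siRNA dose of 75 nM, the transfection reagent and the time of 48 h after transfection. Each group other than control was therefore represented by 1 mixture of 2 siRNAs and 1 library.

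NRF2, the protein product of NFE2L2, is a transcription factor that KEAP1 marks for destruction in unstressed cells. Electrophiles and oxidants modify KEAP1, NRF2 then accumulates, pairs with small MAF proteins and binds antioxidant response elements of its target genes. Several of these targets supply glutathione and thioredoxin reducing power. SLC7A11 imports cystine for glutathione synthesis and GPX4 uses glutathione to reduce lipid hydroperoxides, and the loss of either can lead to ferroptosis, an iron-dependent cell death. Bladder cancers can carry mutations that keep NRF2 active.

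The sequences below are those of the siRNAs of the 2 libraries in which a member was lower by at least 2-fold. They are shown because an siRNA can also lower other mRNAs through a short match in the 3′ UTR. Capitals mark the 7 bases that pair with bases 2 to 8, the seed, of the strand that guides silencing.
si-PTBP1 siRNA 1: gccucaacgucAAGUACAatt
si-PTBP1 siRNA 2: cccucauugacCUGCACAatt
si-lncRNA-LBCS siRNA 1: gcugcucauuuGUCUGAUctt
si-lncRNA-LBCS siRNA 2: ggugguagucaACACAAAutt

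The 19 paired bases of these siRNAs, and of the si-hnRNPK and control siRNAs, matched no transcript of a member in full. Their seeds were searched in the longest 3′ UTR that GENCODE release 29 gives each gene, on GRCh38. The stretches below are those in HMOX1 that matched the seeds of both si-lncRNA-LBCS siRNAs, and those in SLC7A11 that matched the seeds of both si-PTBP1 siRNAs. Each is 30 bases of the 3′ UTR, with the seed match in capitals.
HMOX1, siRNA 1 of si-lncRNA-LBCS, chr22:35394185-35394214, plus strand: ataaacaacattGTCTGATagtagcttgaa
HMOX1, siRNA 2 of si-lncRNA-LBCS, chr22:35393968-35393997, plus strand: atggcaatttttACACAAAcctgaaaagat
SLC7A11, siRNA 1 of si-PTBP1, chr4:138166074-138166103, minus strand: tccttcattccaAAGTACAaacatactttg
SLC7A11, siRNA 2 of si-PTBP1, chr4:138164462-138164491, minus strand: tagcactgatgcCTGCACAagcatgtgata

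The values deposited were CPM, the reads of a gene scaled so that the listed genes of every library share 1 total. The libraries held 54301152 to 70232674 such reads, so that 3 reads were worth 0.0427 to 0.0552 CPM. A change is the difference in log2(CPM + 1) against the control library, which makes changes of genes with low levels look smaller than they are, and a change of at least 1 (2-fold) in size was called. A ratio is that of the CPM of both libraries, given with its 95% exact (Clopper-Pearson) interval, which covers counting error only. With 1 library per group no difference was checked against the spread between cultures, and no p-value is given. In RNA of a whole culture, fewer cells with a transcript and less of it per cell cannot be told apart. HNRNPK was at 24.0% of its control level in the si-hnRNPK library and PTBP1 was at 32.0% in the si-PTBP1 library. The gene that the si-lncRNA-LBCS siRNAs match (ENSG00000228412) had 110 reads with control siRNA and 103 reads with si-lncRNA-LBCS, or 81.8% of the control level (61.9% to 108.0%), so that label was not checked by its target. Of 18 urothelial and epithelial markers, 5 or 6 reached 1 CPM in a library and CDH1 had no row, whereas 8 of 8 mesenchymal markers did. Of 12 white blood cell markers, 0 or 1 reached 1 CPM, with a summed level of 0.826 to 3.46 CPM, and PTPRC had no row.

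The level of the members spanned a wide range in the control library. Per kilobase of annotated exon, TXNRD1 lay at percentile 98.4 of the 12820 genes at 1 CPM or more, GPX4 at 97.8 and NQO1 at 95.7. HMOX1 lay at percentile 84.9, GCLM at 83.1, NFE2L2 at 72.2 and KEAP1 at 66.1. SLC7A11, at percentile 40.6, and GCLC, at 31.0, were the members below the median of 4.66 CPM per kilobase. The subunit genes of glutamate-cysteine ligase, GCLC and GCLM, thus lay far apart.

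**Figure D1:**
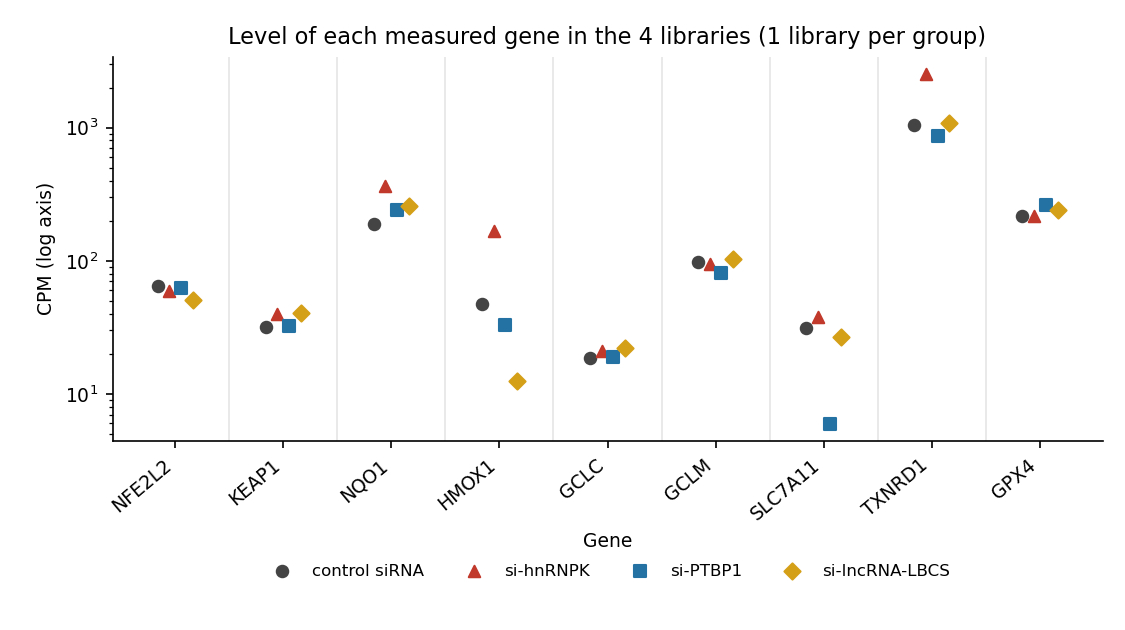
Level in CPM on a log axis of the 9 measured genes, 1 point for each library, with no error bars because there was 1 library per group. HMOX1, from 12.5 to 167.6 CPM, and SLC7A11, from 5.99 to 38.1 CPM, spread farthest over the 4 libraries.

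Across the si-hnRNPK comparison, HMOX1 and TXNRD1 were higher by at least 1 and no member was lower by as much. These were 2 of 9 members, where 3.55% of the 13672 genes tested were higher and 3.93% lower by at least 1. In the si-PTBP1 comparison SLC7A11 was lower and no member higher, where 0.613% of 13855 genes were lower and 2.92% higher. In the si-lncRNA-LBCS comparison HMOX1 was lower and no member higher, where 1.01% of 13492 genes were lower and 0.378% higher. A gene was tested if it had a row in both libraries and at least 1 CPM in either, and the 9 measured members passed this in each comparison.

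The median change of the members was 0.28 with si-hnRNPK, against -0.11 for all genes tested. It was -0.06 with si-PTBP1, against 0.12, and 0.09 with si-lncRNA-LBCS, against -0.01. The 3 comparisons share the control library. Median-of-ratios scaling, which sets the typical gene of each library equal, moved the si-hnRNPK changes up by 0.11 and the si-PTBP1 changes down by 0.13. With that scaling 610 genes were higher and 374 lower by at least 1 with si-hnRNPK, in place of 486 and 537, and 256 were higher and 132 lower with si-PTBP1, in place of 404 and 85.

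**Figure D2:**
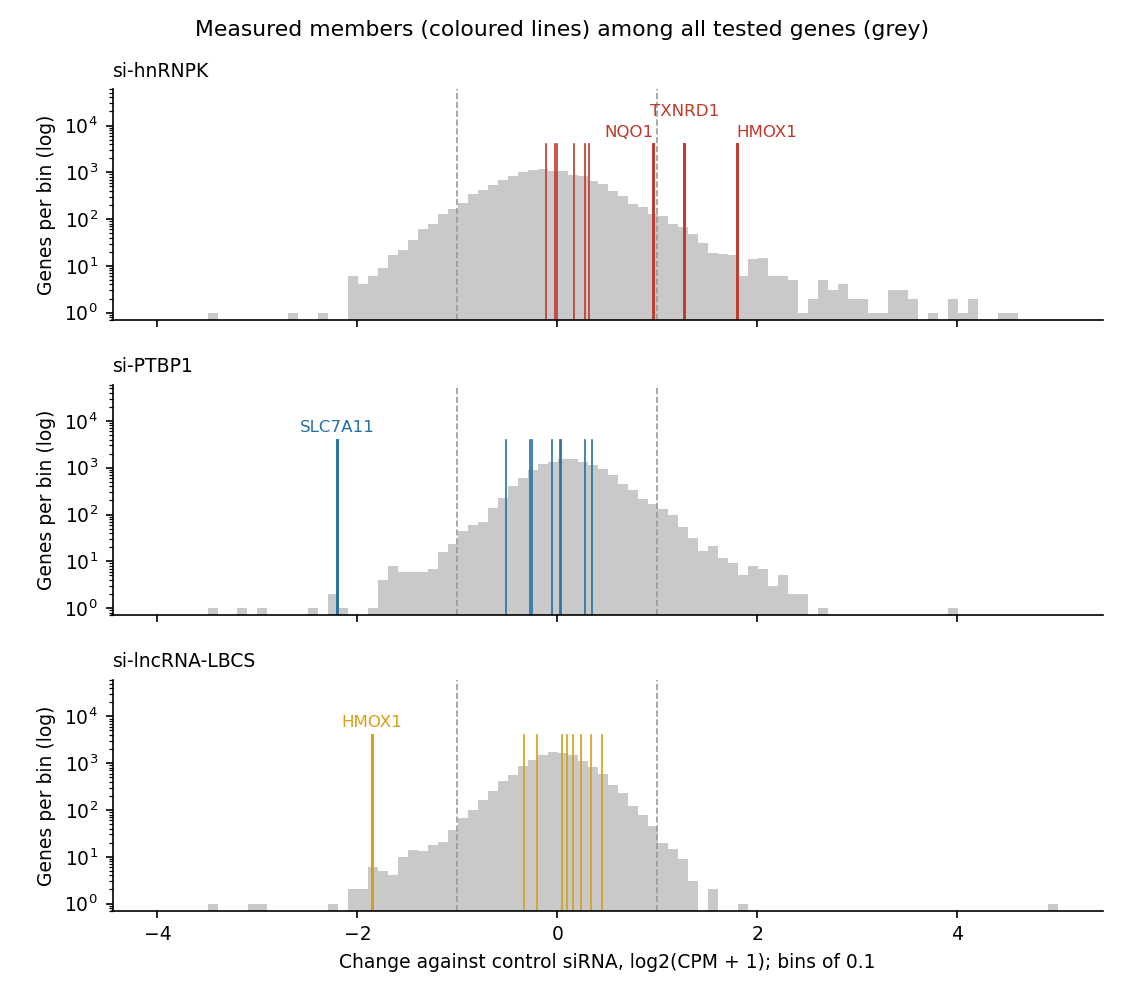
Changes of all genes tested (grey histogram, bins of 0.1, log axis of gene counts) in the 3 comparisons, with 1 coloured line for each of the 9 members and dashed lines at -1 and 1. HMOX1 and TXNRD1 lay beyond 1 and NQO1 at 0.96 with si-hnRNPK, SLC7A11 lay at -2.20 with si-PTBP1 and HMOX1 at -1.85 with si-lncRNA-LBCS.

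NFE2L2 (ENSG00000116044), the NRF2 gene itself, was at 64.5 CPM with control siRNA, 59.5 CPM with si-hnRNPK, 62.0 CPM with si-PTBP1 and 51.0 CPM with si-lncRNA-LBCS. Its levels kept within a 1.26-fold range. The control and si-PTBP1 levels were not told apart by counting error, with a ratio of 1.04 (0.993 to 1.09), nor were those of si-PTBP1 and si-hnRNPK, also with a ratio of 1.04 (0.993 to 1.09). The lowest level, with si-lncRNA-LBCS, was 0.791 times that of control (0.756 to 0.828). This order depends on the scaling. Under median-of-ratios scaling the change of NFE2L2 was -0.18 with si-PTBP1, -0.004 with si-hnRNPK and -0.32 with si-lncRNA-LBCS. The NRF2 gene was thus called in no comparison. Of the NFE2L2 exon bases, 20.9% overlap exons of other annotated genes, and whether reads were counted by strand is not given in the sources used here.

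The genes most like NFE2L2 in their 3 changes, out of 8214 genes that reached 10 CPM in each of the libraries, were SMIM7, STK4, HNRNPAB, PPP1R11 and RPS26. Their Euclidean distances from NFE2L2 over the 3 log2 changes were 0.03 for SMIM7 to 0.06 for RPS26. This likeness rests on 4 libraries and on small changes.

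KEAP1 (ENSG00000079999), which encodes the adaptor that delivers NRF2 to its ubiquitin ligase, was at 31.8 CPM with control siRNA, 39.7 CPM with si-hnRNPK, 32.6 CPM with si-PTBP1 and 40.3 CPM with si-lncRNA-LBCS. Its levels formed 2 pairs. The si-hnRNPK and si-lncRNA-LBCS levels had a ratio of 1.01 (0.958 to 1.07), the si-PTBP1 and control levels a ratio of 1.03 (0.962 to 1.09), and the pairs lay apart by more than counting error. Against control, the change of KEAP1 was 0.31 with si-hnRNPK and 0.33 with si-lncRNA-LBCS, both under the threshold. Median-of-ratios scaling gave 0.42 and 0.34, and turned the change with si-PTBP1 from 0.04 to -0.09.

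HMOX1 (ENSG00000100292, chromosome 22, 35380361 to 35394214) encodes heme oxygenase 1, which breaks heme down to biliverdin, carbon monoxide and iron. It had the widest range of the members. It was at 47.7 CPM (2925 reads) with control siRNA, 167.6 CPM (9101 reads) with si-hnRNPK, 33.1 CPM (1856 reads) with si-PTBP1 and 12.5 CPM (875 reads) with si-lncRNA-LBCS. The highest level was 13.5 times the lowest, and each neighbouring pair in this order differed by more than counting error.

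With si-hnRNPK, HMOX1 was higher than in control by 1.79 on the log2(CPM + 1) scale, a ratio of 3.52 (3.37 to 3.67). It was the 90th highest change of the 13672 genes tested. With si-lncRNA-LBCS it was lower by 3.83-fold, a change of -1.85 and a ratio of 0.261 (0.242 to 0.282). That was the 11th lowest of 13492 changes. With si-PTBP1 its change of -0.51 did not reach the threshold. HMOX1 thus lay above the shared control library with si-hnRNPK and below it in the library labelled si-lncRNA-LBCS.

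NQO1 (ENSG00000181019), the gene of a quinone reductase that is a standard readout of NRF2 activity, was at 189 CPM with control siRNA, 367 CPM with si-hnRNPK, 240.4 CPM with si-PTBP1 and 257 CPM with si-lncRNA-LBCS. The control level was the lowest of the 4. With si-hnRNPK the ratio was 1.95 (1.90 to 1.99), and the change of 0.96 lay just under the threshold. It became 1.07 with median-of-ratios scaling, while the mean of the 3 other libraries as reference gave 0.69. The changes of 0.35 with si-PTBP1 and 0.45 with si-lncRNA-LBCS stayed under it. Of the NQO1 exon bases, 17.7% overlap an annotated gene on the opposite strand.

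TXNRD1 (ENSG00000198431, chromosome 12, 104215779 to 104350305) encodes cytosolic thioredoxin reductase, a selenoprotein that keeps thioredoxin reduced. It was at 1044 CPM with control siRNA, 2519 CPM with si-hnRNPK, 864 CPM with si-PTBP1 and 1078 CPM with si-lncRNA-LBCS. The si-hnRNPK library stood above the other 3, which lay between 864 and 1078 CPM. Against control its ratio was 2.41 (2.39 to 2.43) and its change was 1.27, the 240th highest of the genes tested. Its 64094 reads in the control library made the counting interval the narrowest of the members, which says nothing of the spread between cultures. In the si-PTBP1 library its change was -0.27 and with si-lncRNA-LBCS it was 0.05.

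**Figure D3:**
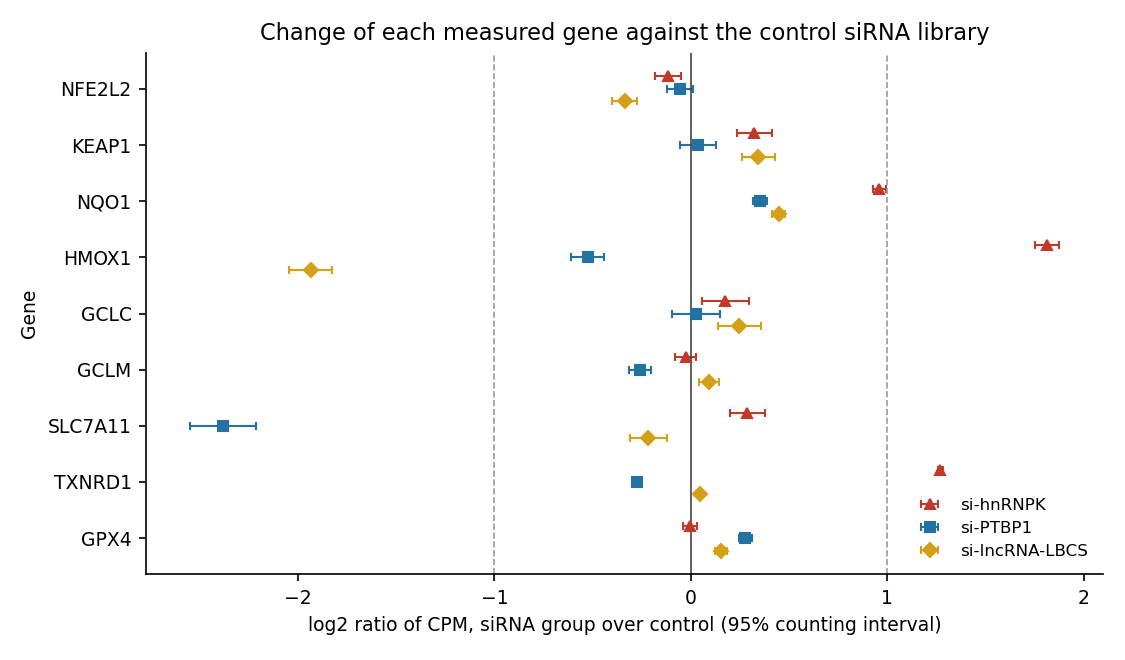
Ratio of CPM of each siRNA group over control on a log2 axis for the 9 measured genes, with bars for the 95% counting interval and dashed lines at -1 and 1. HMOX1 and TXNRD1 lay above 1 with si-hnRNPK with NQO1 just under it, SLC7A11 lay below -1 with si-PTBP1, HMOX1 lay below -1 with si-lncRNA-LBCS, and the other members lay within the dashed lines.

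SLC7A11 (ENSG00000151012, chromosome 4, 138164097 to 138242349) encodes the cystine and glutamate exchanger subunit xCT. It was at 31.2 CPM (1915 reads) with control siRNA, 38.1 CPM (2068 reads) with si-hnRNPK, 5.99 CPM (336 reads) with si-PTBP1 and 26.9 CPM (1887 reads) with si-lncRNA-LBCS. The si-PTBP1 library stood alone at the low end. Against control SLC7A11 was 5.21-fold lower there, a change of -2.20 and a ratio of 0.192 (0.171 to 0.216). That was the 6th lowest of 13855 changes. Its level in the si-PTBP1 library was also lower than with si-lncRNA-LBCS, the next in order, which was higher by a ratio of 4.48 (3.99 to 5.05). In the other comparisons its change was 0.28 with si-hnRNPK and -0.21 with si-lncRNA-LBCS.

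Against the mean of the 3 other libraries on the log2 scale, a reference that includes the low si-PTBP1 library, the change of SLC7A11 with si-hnRNPK was 1.08. Of the SLC7A11 exon bases, 8.97% overlap the antisense gene SLC7A11-AS1.

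GCLC (ENSG00000001084) and GCLM (ENSG00000023909) encode the catalytic and modifier subunits of glutamate-cysteine ligase, the rate-limiting enzyme of glutathione synthesis. GCLC was at 18.6 CPM with control siRNA, 21.0 CPM with si-hnRNPK, 18.9 CPM with si-PTBP1 and 22.1 CPM with si-lncRNA-LBCS. Its levels in the control and si-PTBP1 libraries had a ratio of 1.02 (0.935 to 1.11), and its 4 levels kept within a 1.19-fold range. Exons of other annotated genes overlap 6.20% of the GCLC exon bases. GCLM was at 97.0 CPM with control siRNA, 95.3 CPM with si-hnRNPK, 81.2 CPM with si-PTBP1 and 103 CPM with si-lncRNA-LBCS. The largest change of either subunit was -0.25, that of GCLM with si-PTBP1, and the signs of the GCLC change with si-PTBP1 (0.02) and of the GCLM change with si-hnRNPK (-0.03) turned with median-of-ratios scaling.

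GPX4 (ENSG00000167468), the lipid hydroperoxide reductase at the centre of ferroptosis defense, was at 217 CPM with control siRNA, 217 CPM with si-hnRNPK, 263 CPM with si-PTBP1 and 241 CPM with si-lncRNA-LBCS. The control and si-hnRNPK levels had a ratio of 1.00 (0.977 to 1.03). The highest level, with si-PTBP1, was 1.21 times that of control (1.18 to 1.24), a change of 0.28. In the si-PTBP1 library the cystine exchanger gene was therefore low while the GPX4 gene was not.

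The 3′ UTR matches shown above were read beside these changes. The longest annotated 3′ UTR of HMOX1 is 619 bases, and it holds 1 match to the seed of each si-lncRNA-LBCS siRNA, at bases 602 to 608 and 385 to 391. That of SLC7A11 is 7862 bases, and it holds 1 match to the seed of each si-PTBP1 siRNA, at bases 5868 to 5874 and 7480 to 7486. It also holds 2 matches to the seed of siRNA 2 of si-lncRNA-LBCS and 1 to that of the control siRNA. Among the other members, TXNRD1 holds 1 match to siRNA 1 of si-PTBP1, and NQO1 and GCLC each hold 1 to siRNA 2 of si-hnRNPK. HMOX1 changed by -1.85 with si-lncRNA-LBCS and SLC7A11 by -2.20 with si-PTBP1. SLC7A11 changed by -0.21 with si-lncRNA-LBCS, and TXNRD1 by -0.27 with si-PTBP1. With si-hnRNPK, NQO1 changed by 0.96 and GCLC by 0.17. Whether the matches bear on these values was not tested.

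**Figure D4:**
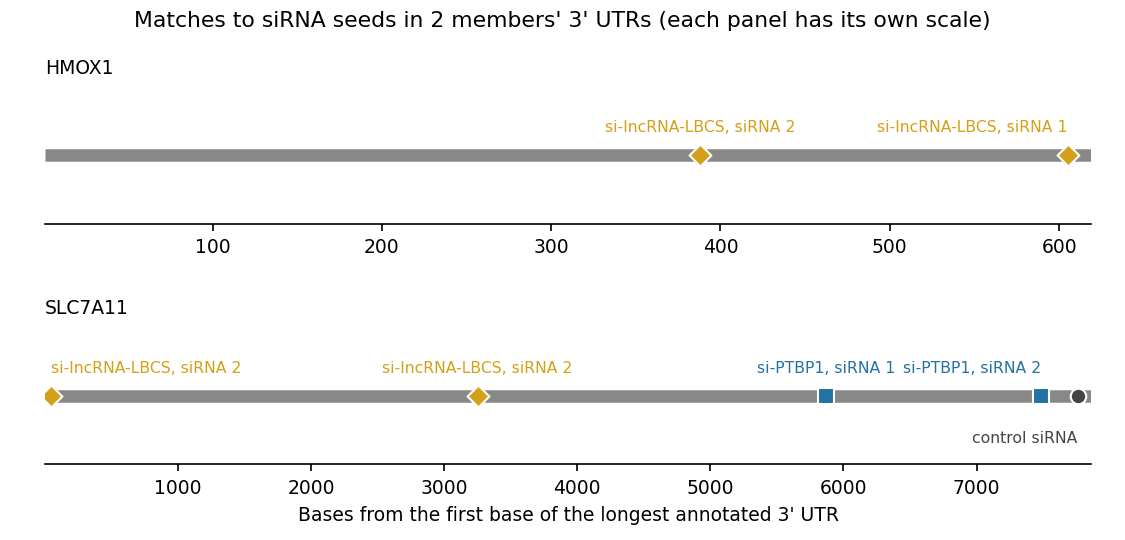
Positions of seed matches along the longest annotated 3′ UTRs of HMOX1 (619 bases) and SLC7A11 (7862 bases), in bases from the first base of the 3′ UTR and with a separate scale in each panel, with 1 symbol for each match. HMOX1 holds matches to both si-lncRNA-LBCS siRNAs, and SLC7A11 holds matches to both si-PTBP1 siRNAs, to siRNA 2 of si-lncRNA-LBCS and to the control siRNA.

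Of the 19897 genes with an annotated 3′ UTR, 2.97% hold matches to both si-lncRNA-LBCS siRNAs and 3.10% to both si-PTBP1 siRNAs. Of the 441 tested genes with both si-lncRNA-LBCS matches, 7 were lower by at least 1 in that library, or 1.59%, against 0.941% of the other genes with a 3′ UTR. Of the 446 tested genes with both si-PTBP1 matches, 6 were lower by at least 1 with si-PTBP1, or 1.35%, against 0.652%. HMOX1 is 1 of these 7 genes and SLC7A11 is 1 of these 6, so the shares include the falls they are read beside. For the si-hnRNPK siRNAs the shares lower by at least 1 were 5.22% of 479 genes with both matches and 3.85% of the others. Most genes with both matches were not lower by as much. Genes with both matches also had longer 3′ UTRs, with medians of 5008 bases against 1602 for si-lncRNA-LBCS. The medians were 4839.5 against 1599 for si-PTBP1 and 4650 against 1590 for si-hnRNPK. The part of these matches in the HMOX1 and SLC7A11 values was not tested.

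The letters of the antioxidant response element were searched as TGACNNNGC on both strands of RefSeq promoter windows of 300 bases (250 before to 50 after the start site, GRCh38.p14). These letters overlap in part those of the AP-1 motif. They were found in 13.3% of all 35116 windows, and in at least 1 window of 16.1% of the 27305 genes with a window. Among the 8 members with a window, TXNRD1 held 3 matches in 2 of 2 windows, KEAP1 held 2 in 1 of 2 windows and GCLM held 1, and no match lay in the windows of NFE2L2, NQO1, GCLC, SRXN1 and GPX4. HMOX1 and SLC7A11 were not searched. The stretches of TXNRD1, which was higher with si-hnRNPK, and of GCLM, which was not, are shown with the matches in capitals.
TXNRD1, chr12:104215660-104215708, plus strand: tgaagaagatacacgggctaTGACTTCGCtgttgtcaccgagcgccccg
TXNRD1, chr12:104215751-104215799, plus strand: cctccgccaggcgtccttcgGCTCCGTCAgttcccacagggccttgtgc
TXNRD1, chr12:104286910-104286958, plus strand: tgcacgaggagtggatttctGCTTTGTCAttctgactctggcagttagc
GCLM, chr1:93909436-93909484, minus strand: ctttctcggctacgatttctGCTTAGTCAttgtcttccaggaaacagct

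A match describes these letters and not a bound site. Sequence outside the 300-base windows was not searched, so a member without a match may hold one farther away. The changes of members with and without a match are therefore given as description only. With si-hnRNPK the changes of the members with a match were 1.27 for TXNRD1, 0.31 for KEAP1 and -0.03 for GCLM. Those of the measured members searched without a match were 0.96 for NQO1, 0.17 for GCLC, -0.00 for GPX4 and -0.11 for NFE2L2.

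A wider set of 166 pathway genes, in 7 lists, was read beside the members, of which 151 had a row. With si-hnRNPK 6 of 140 tested genes were higher and 4 lower by at least 1, with a median change of 0.07. With si-PTBP1 2 of 138 were higher and 3 lower, with a median of 0.07. With si-lncRNA-LBCS 0 of 139 were higher and 1 lower, with a median of 0.01. The shares higher and lower were 4.29% and 2.86% with si-hnRNPK, beside 3.55% and 3.93% of all genes tested. They were 1.45% and 2.17% with si-PTBP1, beside 2.92% and 0.613%. With si-lncRNA-LBCS they were 0% and 0.719%, beside 0.378% and 1.01%. With median-of-ratios scaling 9 were higher and 3 lower with si-hnRNPK and 2 were higher and 4 lower with si-PTBP1.

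Among the partners and the turnover of NRF2, CREBBP, a coactivator, was lower with si-hnRNPK, at 23.9 CPM against 52.3 CPM in control, a change of -1.10 that became -0.99 with median-of-ratios scaling, while the mean of the 3 other libraries as reference gave -0.84. It was also at 26.6 CPM with si-lncRNA-LBCS, a change of -0.95, and at 58.9 CPM with si-PTBP1. MAFF, a small MAF partner of NRF2, was at 25.0 CPM in control, 27.9 CPM with si-hnRNPK, 12.1 CPM with si-PTBP1 and 16.0 CPM with si-lncRNA-LBCS. Its change with si-PTBP1 was -0.99, and -1.11 with median-of-ratios scaling. In this list of 13 genes 0 were higher and 1 lower in the si-hnRNPK comparison, and 0 were called in the others. Of all genes tested with si-hnRNPK, 3.55% were higher and 3.93% lower.

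Of the other NRF2 targets, 40 were tested with si-hnRNPK, of which 4 were higher and 1 lower, with a median of 0.14. For all genes tested the shares were 3.55% higher and 3.93% lower, with a median of -0.11. BLVRB, a biliverdin reductase gene, was at 32.5 CPM in control and 70.7 CPM with si-hnRNPK, a change of 1.10. It was at 56.9 CPM with si-PTBP1 and 52.9 CPM with si-lncRNA-LBCS, so that control was the lowest of the 4. Against the mean of the 3 other libraries its change with si-hnRNPK was 0.61. The biliverdin reductase gene BLVRA, given for comparison, was at 25.0 CPM in control and 22.5 CPM with si-hnRNPK, a change of -0.15. IDH1, an NADPH-producing isocitrate dehydrogenase, was lower with si-hnRNPK, at 32.0 CPM against 87.9 CPM in control, a change of -1.43. The aldo-keto reductase genes AKR1B10 and AKR1C3 also passed the threshold but did not reach 10 CPM, and are named after their values were seen. Against the mean of the 3 other libraries their changes were 0.50, from 1.02, for AKR1B10 and 0.96, from 1.05, for AKR1C3. With a pseudocount of 0.1 the change of AKR1B10 was 2.24. AKR1B10 was at 0.244 CPM (15 reads) in control and 1.53 CPM (83 reads) with si-hnRNPK. It thus passed the filter of 1 CPM only through its si-hnRNPK level. AKR1B10 was also above control with si-PTBP1, by a ratio of 3.72 (51 reads), and with si-lncRNA-LBCS, by a ratio of 5.65 (97 reads). With a filter of 5 CPM it was no longer among the genes higher with si-hnRNPK.

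Heme breakdown releases iron, which ferritin stores. FTH1, the ferritin heavy chain gene, was at 32.0 CPM in control, 73.9 CPM with si-hnRNPK, 33.1 CPM with si-PTBP1 and 42.3 CPM with si-lncRNA-LBCS, and its change with si-hnRNPK was 1.18. The light chain gene FTL, given for comparison, was at 1086 CPM in control, 1705 CPM with si-hnRNPK, 1266 CPM with si-PTBP1 and 1709 CPM with si-lncRNA-LBCS, and its change with si-hnRNPK was 0.65. Of the 100-base windows of FTH1, 8.23% are shared with its pseudogenes, so the FTH1 values are uncertain. Of the 15 iron handling genes tested, FTH1 was the 1 that was higher with si-hnRNPK and 0 were lower. The shares of all genes tested were 3.55% higher and 3.93% lower.

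With si-PTBP1, 38 of the other NRF2 targets were tested, of which 1 was higher and 1 lower. With si-lncRNA-LBCS 0 of 39 were called. The shares of all genes tested were 2.92% higher and 0.613% lower with si-PTBP1, and 0.378% and 1.01% with si-lncRNA-LBCS. ABCC3, an efflux transporter, was higher at 24.9 CPM against 9.84 CPM in control, a change of 1.26. PROM2, which promotes iron export, was higher at 12.8 CPM against 5.38 CPM, a change of 1.12.

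Of 21 tested glutathione genes beyond the members, 0 were called with si-hnRNPK, 1 was lower with si-PTBP1 and 1 with si-lncRNA-LBCS. The shares of all genes tested were 3.55% higher and 3.93% lower with si-hnRNPK. They were 2.92% and 0.613% with si-PTBP1, and 0.378% and 1.01% with si-lncRNA-LBCS. GSTO1, an omega class glutathione transferase, was at 120.2 CPM in control, 104 CPM with si-hnRNPK, 104 CPM with si-PTBP1 and 38.7 CPM with si-lncRNA-LBCS, a change of -1.61 there. MGST1, a microsomal glutathione transferase, was lower there by less, at 54.2 CPM against 87.1 CPM, a change of -0.68. CHAC1, which degrades glutathione, was the gene lower with si-PTBP1, at 0.446 CPM (25 reads) against 3.42 CPM (210 reads) in control, a change of -1.61, and is named after its values were seen, since it did not reach 10 CPM.

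Among 21 tested peroxiredoxin, thioredoxin, dismutase and peroxidase genes, SOD2 was the 1 that was higher with si-hnRNPK. In the other comparisons 0 were called. Of all genes tested with si-hnRNPK, 3.55% were higher and 3.93% lower. SOD2 encodes the mitochondrial superoxide dismutase. It was at 122 CPM in control, 1322 CPM with si-hnRNPK, 149.7 CPM with si-PTBP1 and 154 CPM with si-lncRNA-LBCS. Its ratio with si-hnRNPK was 10.9 (10.6 to 11.1), larger than that of any member. Of its 100-base windows, 4.72% are shared with other annotated genes, among them a second identifier named SOD2. TXNRD3, a relative of TXNRD1, was at 5.77 CPM in control and 12.2 CPM with si-hnRNPK, a change of 0.96 that became 1.07 with median-of-ratios scaling, while the mean of the 3 other libraries as reference gave 0.61.

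Of 22 tested ferroptosis lipid and radical trapping genes, PLA2G6 was higher and MBOAT1 lower with si-hnRNPK and 0 were called in the other comparisons. The shares of all genes tested with si-hnRNPK were 3.55% higher and 3.93% lower. PLA2G6, a phospholipase that removes oxidised fatty acids from phospholipids, was at 17.1 CPM against 5.15 CPM in control, a change of 1.56. MBOAT1, a phospholipid-remodelling acyltransferase, was at 3.24 CPM against 10.0 CPM, a change of -1.38. PLA2G6 was also at 10.9 CPM with si-PTBP1, a change of 0.95. That change was 1.07 with a pseudocount of 0.1 and 0.84 with median-of-ratios scaling. MBOAT1 was at 5.94 CPM with si-lncRNA-LBCS, a change of -0.67. The remaining changes were 0.29 for PLA2G6 with si-lncRNA-LBCS and -0.32 for MBOAT1 with si-PTBP1. Both genes passed the threshold in the si-hnRNPK library, where GPX4 was at its control level.

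GPX4 and TXNRD1 are selenoproteins, and of 15 tested genes for selenoproteins and their synthesis SELENOF was lower with si-hnRNPK and SELENOT with si-PTBP1. Of all genes tested, 3.93% were lower with si-hnRNPK and 0.613% with si-PTBP1. SELENOF, a selenoprotein of the endoplasmic reticulum, was at 62.2 CPM against 149.7 CPM in control, a change of -1.25. SELENOT, a selenoprotein of the same compartment, was at 69.2 CPM against 140.4 CPM, a change of -1.01 that became -0.77 against the mean of the 3 other libraries. The medians of this list were -0.26 with si-hnRNPK, -0.08 with si-PTBP1 and -0.12 with si-lncRNA-LBCS.

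**Figure D5:**
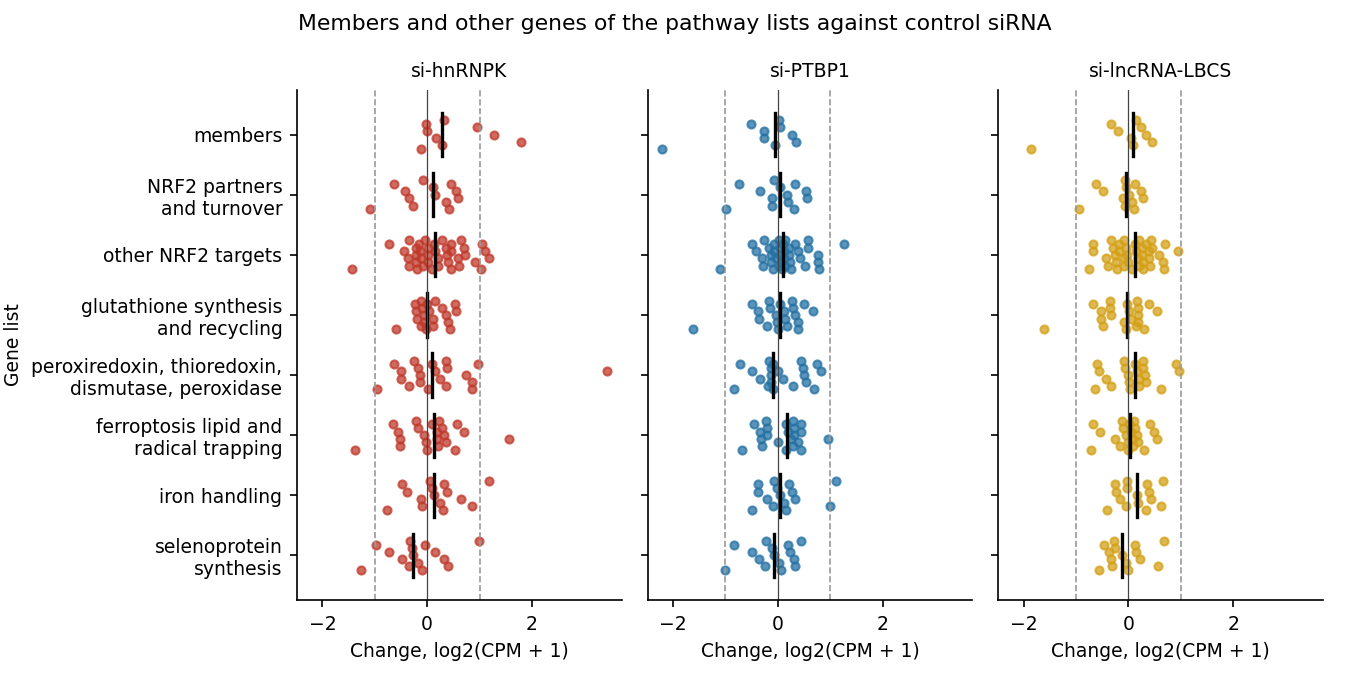
Change against control of the members and of the other genes in the 7 pathway lists, in log2(CPM + 1), with 1 point for each tested gene, a black bar at the median of a list and dashed lines at -1 and 1. The medians lay between -0.26 and 0.28, and single genes such as SOD2 at 3.43 with si-hnRNPK and SLC7A11 at -2.20 with si-PTBP1 lay far from the median of their lists.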

How the data were processed

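The authors deposited 1 table of CPM per library. The submitters' processing notes name the build hg19. The aligner, counter, annotation and strand setting are not given in the sources used here. CPM came out as whole reads for 100% of values (tolerance 0.1 read). Identifiers without reads (197 to 393 a table) carry a placeholder and were set to 0. Names, positions and 3′ UTRs are from GENCODE release 29 (GRCh38), matched by identifier (24085 of 25719 in the control table), and promoters from RefSeq. Pathway genes were named if the higher of both libraries reached 10 CPM and the change was at least 1, or, where under 3 genes of a list did so, as the 2 largest changes of the list. A pathway gene that met this rule is not reported here. The members and lists were chosen with earlier results of these data known. Alternatives were a filter of 5 CPM or none, a pseudocount of 0.1, a 1.5-fold threshold, median-of-ratios scaling (12362 genes), the mean of the 3 other libraries as reference, and size with a counting interval without 1. Scripts were tested on simulated data. Python 3.11.15, numpy 2.4.6, pandas 2.3.3 and scipy 1.17.1 were used.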

Additional observations from a re-analysis of the deposited data

How the results depend on the processing

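The count of members higher with si-hnRNPK rose from 2 to 3 under some of the 7 alternatives. NQO1 was added by median-of-ratios scaling and by the 1.5-fold threshold, and SLC7A11 by the mean of the 3 other libraries as reference. The other counts of members higher or lower were the same under each alternative. The median change of the members moved with the scaling: it was 0.39 in place of 0.28 with si-hnRNPK under median-of-ratios scaling, and -0.18 in place of -0.06 with si-PTBP1 both under that scaling and against the mean of the 3 other libraries. Of the 27 changes of single members, 25 kept their side of 1 under the 5 settings run for them. The exceptions were NQO1 with si-hnRNPK, at 1.07 with median-of-ratios scaling, and SLC7A11 with si-hnRNPK, at 1.08 against the mean of the 3 other libraries. The sign held for 18 of the 27, and the largest change whose sign turned was that of NQO1 with si-PTBP1, from 0.35 to -0.12 against the mean of the 3 other libraries. No paired analysis was possible because each group held 1 library.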

Other observations

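SLC7A11 and CHAC1 also belong to the genes that the amino acid response factor ATF4 is known to regulate. A list of 14 such genes, CHAC1 among them, was written after the values had been seen, and it is given as a description. With si-PTBP1 4 of the 14 were lower by at least 1 and 1 was higher, with a median change of -0.28, where 0.613% of all genes tested were lower and 2.92% higher and their median was 0.12. Since the list was written with the values known, nothing is read from these counts. PHGDH, of serine synthesis, was at 13.3 CPM against 46.6 CPM in control, and ASNS, the asparagine synthetase gene, at 22.4 CPM against 71.95 CPM. VLDLR and CHAC1 were the other genes lower by at least 1, and DDIT4 was higher, at 253 CPM against 123 CPM. TRIB3 was at 47.0 CPM against 33.3 CPM and DDIT3 at 13.4 CPM against 10.7 CPM, both above control but under the threshold. ATF4 itself was at 282 CPM with si-PTBP1 and 379 CPM in control. With si-lncRNA-LBCS 0 of the 14 were called, and with si-hnRNPK 1 was higher, ATF3, at 12.0 CPM against 1.71 CPM.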
